A study of Mus musculus with 4 samples.

Results

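The 43 genes described here act in G2 and mitosis, the phases in which a cell checks its copied DNA, builds a spindle, separates its chromosomes and divides. They were taken by name from the expression table of a forelimb culture study, where all 43 were found among 17568 listed genes. The list was drawn up by function, but with earlier results of these data known. The study used embryos of the Swiss Webster mouse strain, wild-type in genotype, at E10.25 (31 to 34 somites), and sequenced RNA of their forelimb buds on the SOLiD platform, a ligation-based short-read sequencer. There were 2 libraries from limbs cultured in medium with cyclopamine and 2 libraries from limbs cultured in control medium. Cyclopamine is a plant alkaloid that blocks Smoothened, the membrane protein that passes on the Hedgehog signal. Strain, genotype, tissue and stage were the same in both groups, and neither the dose and vehicle nor the culture time and the limbs pooled in a library are stated in the sources used. The labels do not say whether the libraries came from separate cultures, so p-values measure only the spread between these libraries.

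Entry into mitosis is driven by the kinase Cdk1 bound to cyclin A or cyclin B, and it is switched on by Cdc25 phosphatases and helped by the kinases Plk1 and Aurora A. Most of the genes are silent or low in G1 and are transcribed together in G2, and their RNA is commonly used as a marker of dividing cells. In the limb bud at this stage the mesenchyme proliferates quickly, and the Hedgehog signal from its posterior margin is known to support both patterning and growth. In bulk RNA, fewer cells in G2 or mitosis and less RNA per such cell cannot be told apart.

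Every gene of the list measured less in cyclopamine on average, by a small amount. All 43 had a negative log2 fold change, with a median of -0.30 and a range of -0.57 (Plk1) to -0.10 (Cdc20). Across all 13568 genes tested, which had a mean of at least 1 CPM (counts per 1000000 reads, scaled by the authors), 49% had a negative fold change and the median was 0.00455. No member passed the threshold of 0.05 for the adjusted p in limma (0 of 43), where 0.28% of all genes passed and 0.236% passed on the lower side. At an unadjusted p under 0.05, 16 members lay lower and 0 higher, beside 2.78% of all genes that lay lower at that level and 5.82% that lay to either side. The gene with the smallest p was Plk1 (limma adjusted p = 0.238). The smallest change among the genes that did pass was 0.84 on the log2 scale, larger than that of any member. This value is not a detection limit, and whether this test can detect changes of the members' size was not tried.

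Promoters of G2/M genes are known to carry a short element called the CHR (cell cycle genes homology region), usually near CCAAT boxes. The CHR is bound by the MuvB complex, which represses these genes early in the cycle and, joined by B-Myb and FoxM1, activates them in G2. As examples, 8 promoter windows are printed, from 100 bases before to 30 bases after the transcription start, from RefSeq on GRCm38.p6 (mm10). They include Cdc25b, Bub1, Hmmr and Ttk from the larger fold changes, and the Cdk1 and cyclin B genes and Cdc20 from the smaller ones. Capitals mark the CHR (TTTGAA or TTCGAA) and the CCAAT box (CCAAT) on either strand, so that TTCAAA and ATTGG are the same elements read from the other strand.
Bub1, chr2:127831830-127831959, minus strand: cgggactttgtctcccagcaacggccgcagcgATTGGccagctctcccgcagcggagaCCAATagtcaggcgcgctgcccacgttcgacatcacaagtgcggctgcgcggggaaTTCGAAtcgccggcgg
Hmmr, chr11:40733408-40733537, minus strand: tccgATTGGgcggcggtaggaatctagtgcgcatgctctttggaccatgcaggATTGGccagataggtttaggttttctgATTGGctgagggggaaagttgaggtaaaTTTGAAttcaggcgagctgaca
Cdc25b, chr2:131186848-131186977, plus strand: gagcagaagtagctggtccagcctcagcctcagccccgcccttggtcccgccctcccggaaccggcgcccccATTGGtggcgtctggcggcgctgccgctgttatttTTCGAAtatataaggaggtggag
Ttk, chr9:83834589-83834718, plus strand: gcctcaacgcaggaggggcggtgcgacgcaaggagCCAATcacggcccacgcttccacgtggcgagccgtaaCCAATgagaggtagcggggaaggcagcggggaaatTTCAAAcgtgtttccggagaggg
Ccnb2, chr9:70421525-70421654, minus strand: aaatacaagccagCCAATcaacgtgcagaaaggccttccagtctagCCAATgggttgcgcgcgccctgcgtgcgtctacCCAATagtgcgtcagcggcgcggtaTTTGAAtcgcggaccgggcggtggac
Cdk1, chr10:69352883-69353012, minus strand: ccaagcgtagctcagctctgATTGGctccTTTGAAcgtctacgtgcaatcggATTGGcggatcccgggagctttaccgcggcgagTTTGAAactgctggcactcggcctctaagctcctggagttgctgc
Cdc20, chr4:118437314-118437443, minus strand: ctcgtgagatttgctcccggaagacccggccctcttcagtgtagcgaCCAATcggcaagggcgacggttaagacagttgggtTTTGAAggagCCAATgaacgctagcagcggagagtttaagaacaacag
Ccnb1, chr13:100786457-100786586, minus strand: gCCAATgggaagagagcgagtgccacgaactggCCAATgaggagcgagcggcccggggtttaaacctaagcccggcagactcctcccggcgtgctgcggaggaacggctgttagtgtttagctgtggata

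In 7 of these 8 windows a CHR lies close to the start, downstream of at least 1 CCAAT box. The Ccnb1 window holds 2 CCAAT boxes and no CHR by these letters. The 8 genes were picked by hand, so this count does not stand for the members as a whole. Among those left out were Plk1, whose CHR begins at base 31 after the start, and Nusap1, which has neither element. RefSeq promoters, here 250 bases before to 50 after the start, were matched for 35 of the 43 members, with 37 promoters in all. The CHR letters were found in 31 of these 37 promoters (83.8%), against 13.6% of the 12837 promoters of genes tested and 19.2% of all 32851 promoters in the RefSeq table. A CCAAT box was found in 29 of the 37 (78.4%), against 37.7% of the promoters of genes tested. Both were found in 73% of the members' promoters, against 5.69%, and no CHR match shared a base with a CCAAT match (0 in these promoters). In 26 genes the CHR lay within 50 bases of the start. These matches describe the letters in the window and were not tested for binding.

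**Figure D1:**
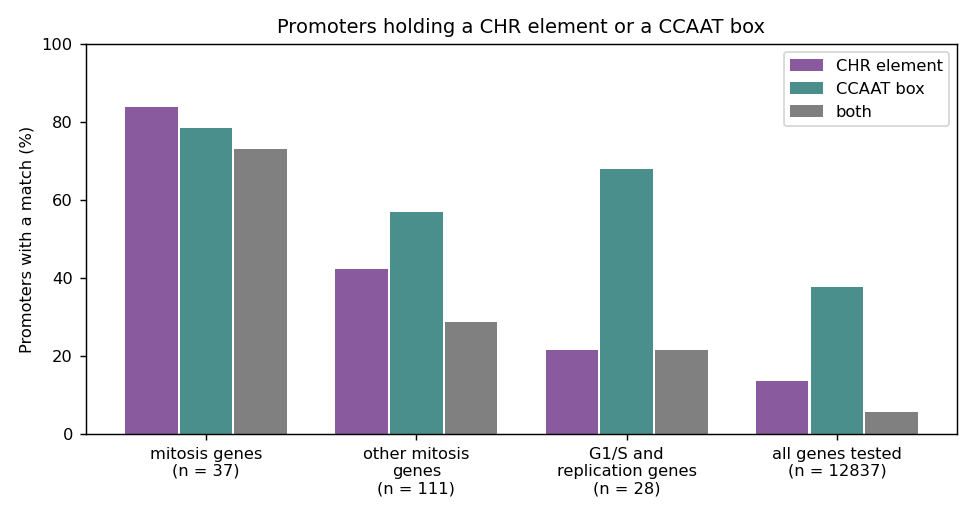
Share of promoters (y axis, percent) with a CHR, a CCAAT box or both, from 250 bases before to 50 after the start, for the members, other mitosis genes, G1/S and replication genes and all genes tested (x axis, with the number of promoters). The CHR is found in 83.8% of the members' promoters and 13.6% of those of all genes tested.

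The 29 members with a CHR had a median log2 fold change of -0.32. The 6 without (Birc5, Ccnb1, Cenpe, Mad2l1, Nuf2 and Nusap1) had a median of -0.27, and the difference was not tested. Cdc20, with the smallest change of all members, carries a CHR and 2 CCAAT boxes, and Nusap1, with -0.43, carries neither. Among other mitosis genes 42.3% of 111 promoters held a CHR, and among G1/S and replication genes 21.4% of 28 did. GLI factors carry out the transcriptional response to Hedgehog. The letters GACCACCCA, a consensus for them, were in 0 of the 37 member promoters and in 0.218% of those of genes tested. They were in 2 of the 111 promoters of other mitosis genes (1.8%) and in 0 of the 28 of G1/S and replication genes. Letters this rare are seldom met in 37 promoters, so the 0 does not set the members apart from other genes.

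Targets of the Hedgehog pathway itself fell in cyclopamine. Gli1, a transcription factor gene induced by Hedgehog, measured 8.05 and 4.70 CPM in the cyclopamine libraries and 56.2 and 56.7 CPM in the controls, and it fell by 3.10 (SE 0.23) on the log2 scale (limma adjusted p = 4.32e-06). Ptch1, a Hedgehog receptor gene, fell by 1.44 (SE 0.19, limma adjusted p = 0.00216). The libraries held 12962633 and 12010965 gene reads for cyclopamine and 9779589 and 13555492 for control. Each member rested on 324 to 15459 reads in a library, and none was lost to the filter on low values.

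Library by library, the highest value of every member lay in a control and the lowest in a cyclopamine library. Control 2 held the highest value for 34 members and control 1 for the other 9, while cyclopamine 2 held the lowest for 35 and cyclopamine 1 for 8. Both cyclopamine libraries lay below both controls for 32 of the 43 genes, and this held for 15.8% of all genes tested. No member had both cyclopamine libraries above both controls (0 of 43, beside 16.8% of all genes). Summed over the list, expression was 7102 and 6535 CPM in cyclopamine and 7815 and 8885 CPM in the controls, a ratio of 0.817.

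**Figure D2:**
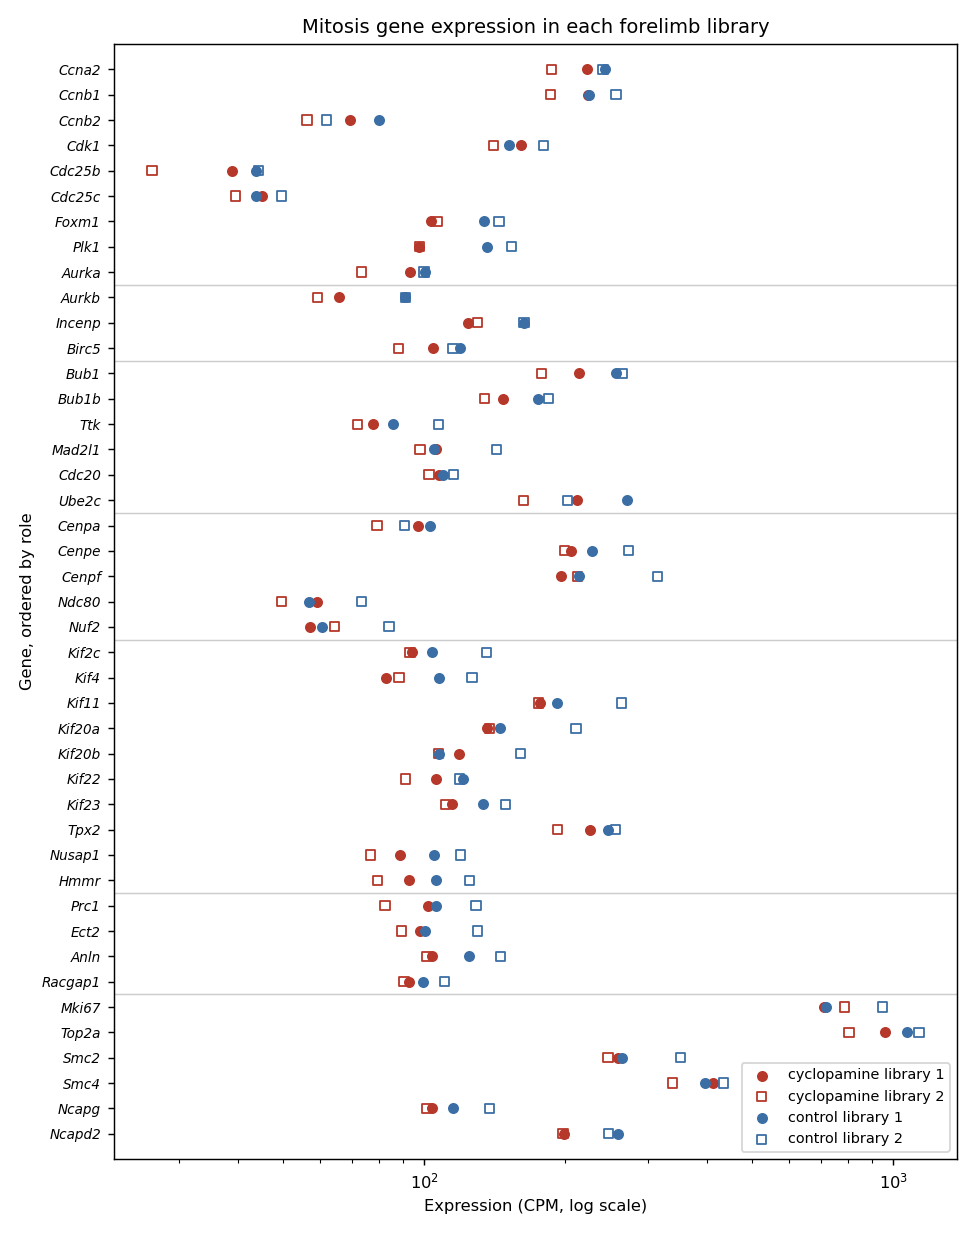
Expression of the 43 genes in each library (x axis, CPM on a log scale), ordered by role from mitotic entry at the top to chromosome structure at the bottom. Each point is 1 library, red for cyclopamine and blue for control, and for 32 genes the red points all lie to the left of the blue ones.

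The libraries of a group also differed from each other, in ways that touched the whole list. The median member difference was 0.18 on the log2 scale between control 2 and control 1, with 34 genes higher in control 2. Between cyclopamine 2 and cyclopamine 1 it was -0.13, with 35 genes lower in cyclopamine 2. Between groups the median ran from -0.14 (cyclopamine 1 minus control 1) to -0.45 (cyclopamine 2 minus control 2). The fold change was larger than both within-group differences for 22 of the 43 genes. Over all genes tested, the median of each of these pairs lay within 0.00989 of 0.

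**Figure D3:**
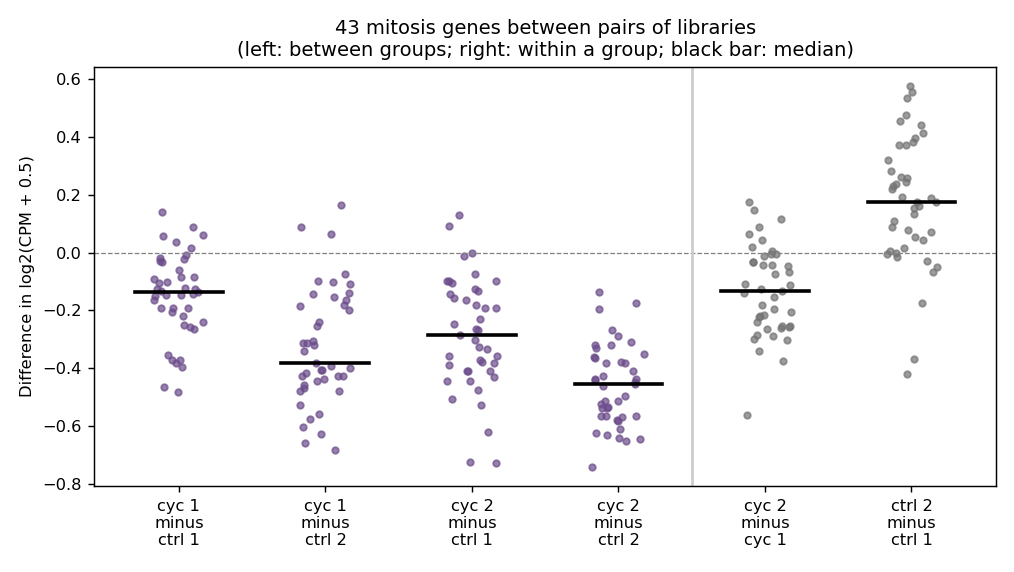
Difference in log2(CPM + 0.5) of each member between pairs of libraries (y axis), for the 4 pairs of a cyclopamine and a control library and, to the right, the 2 pairs within a group. Points are genes and black bars are medians, which lie at -0.14 to -0.45 between groups, at -0.13 between the cyclopamine libraries and at 0.18 between the controls.

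The regulators of mitotic entry included both the largest change of the list and some of the smallest. Plk1, the Polo-like kinase that promotes entry, spindle assembly and cytokinesis, measured 97.3 and 97.6 CPM in cyclopamine and 136 and 154 CPM in the controls. The groups did not overlap, and the log2 fold change was -0.57 (SE 0.15, 95% interval -0.88 to -0.25). In mm10 Plk1 lies on chromosome 7 at 122159439 to 122169873, where its exons overlap those of Gm44985 on the opposite strand. Foxm1, the forkhead factor that activates G2/M genes, measured 103 and 107 CPM in cyclopamine and 134 and 144 CPM in the controls (-0.40, SE 0.15, limma adjusted p = 0.612). Cdc25b, a phosphatase that activates Cdk1, measured 39.0 and 26.3 CPM against 43.7 and 44.2 CPM. Its cyclopamine libraries differed more from each other than the closer of them did from the controls.

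Cdk1, the mitotic kinase, measured 161 and 141 CPM in cyclopamine and 151 and 179 CPM in the controls, so the groups overlapped (-0.13, SE 0.15, 95% interval -0.46 to 0.20). Its partner Ccnb1 (cyclin B1) measured 223 and 186 CPM in cyclopamine and 225 and 256 CPM in the controls, and Ccnb2 (cyclin B2) measured 69.5 and 56.2 CPM against 80.2 and 61.9 CPM. Ccna2 (cyclin A2) measured 223 and 187 CPM in cyclopamine and 243 and 241 CPM in the controls. The related phosphatase Cdc25c lay at -0.14 (SE 0.16) on the log2 scale, and Aurka, the spindle pole kinase, at -0.27 (SE 0.16). Of these 9 regulators all were lower, 6 without overlap (beside 15.8% of all genes tested), with a median of -0.25.

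All 3 listed subunits of the chromosomal passenger complex lay below control without overlap, beside 15.8% of all genes tested. This complex corrects faulty attachments between chromosomes and spindle. Aurkb, its kinase, measured 65.8 and 59.1 CPM in cyclopamine and 91.0 and 91.2 CPM in the controls. The control values are nearly equal, and the log2 fold change was -0.54 (SE 0.15, 95% interval -0.86 to -0.23, limma adjusted p = 0.289). Incenp, the scaffold, measured 124 and 130 CPM in cyclopamine and 163 and 163 CPM in the controls (-0.36, SE 0.14). Birc5 (survivin), which helps place the complex at centromeres, measured 104 and 88.2 CPM in cyclopamine and 119 and 115 CPM in the controls (-0.29, SE 0.15). The difference between Aurkb and its paralog Aurka was not tested.

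The spindle assembly checkpoint holds anaphase until every kinetochore is attached. Its kinase gene Bub1 measured 213 and 178 CPM in cyclopamine and 257 and 264 CPM in the controls (-0.42, SE 0.16). Bub1b, which encodes the inhibitor BubR1, measured 147 and 135 CPM in cyclopamine and 175 and 184 CPM in the controls (-0.35, SE 0.15). Ttk (the kinase Mps1) lay at -0.35 (SE 0.16) on the log2 scale, and these 3 did not overlap between groups. Mad2l1 (Mad2), which sequesters Cdc20, measured 106 and 97.9 CPM in cyclopamine and 105 and 142 CPM in the controls, with the higher value resting on control 2.

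Cdc20, the activator of the anaphase-promoting complex, measured 108 and 102 CPM in cyclopamine and 109 and 116 CPM in the controls (-0.10, SE 0.15, 95% interval -0.41 to 0.21). Ube2c, the enzyme that supplies ubiquitin to that complex, measured 211 and 163 CPM in cyclopamine and 270 and 202 CPM in the controls. It was among the genes that went against the usual order of the libraries, with control 2 below control 1 by 0.42 on the log2 scale. Exons of both genes overlap a gene on the opposite strand (Elovl1 for Cdc20, Tnnc2 for Ube2c). The 6 checkpoint and anaphase genes had a median of -0.34.

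Of the 5 kinetochore genes, 2 were free of overlap on the lower side, beside 15.8% of all genes tested, and the median was -0.25. Ndc80 and Nuf2, which form the microtubule-binding arm of the kinetochore together, measured 59.2 and 49.5 CPM (Ndc80) and 57.0 and 64.4 CPM (Nuf2) in cyclopamine. In the controls they measured 56.6 and 73.5 CPM (Ndc80) and 60.4 and 84.0 CPM (Nuf2), so control 1 lay within or close to the cyclopamine values. Cenpf, a large protein of the outer kinetochore, measured 196 and 212 CPM in cyclopamine and 214 and 314 CPM in the controls. Cenpe, a kinesin that moves chromosomes to the spindle middle, had a log2 fold change of -0.30 (SE 0.15). Cenpa, the histone variant that marks the centromere, had -0.14 (SE 0.16).

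Among motors and spindle proteins 9 of 10 genes lay lower without overlap, beside 15.8% of all genes tested, and the median was -0.35. Kif4, a motor on chromosome arms, measured 83.0 and 88.3 CPM in cyclopamine and 108 and 126 CPM in the controls (-0.44, SE 0.15, limma adjusted p = 0.542). Nusap1, a microtubule-binding spindle protein, measured 88.6 and 76.8 CPM in cyclopamine and 105 and 119 CPM in the controls (-0.43, SE 0.15). Hmmr, which acts at spindle poles, measured 92.7 and 79.6 CPM in cyclopamine and 106 and 125 CPM in the controls (-0.42, SE 0.16). For several motors the cyclopamine libraries agreed closely while the controls were spread. Kif11 (Eg5), which pushes spindle poles apart, measured 176 and 175 CPM in cyclopamine and 192 and 263 CPM in the controls. Kif20a, a motor of the central spindle, measured 136 and 138 CPM in cyclopamine and 145 and 211 CPM in the controls, and Kif2c, a depolymerase of microtubule ends, 94.0 and 93.2 CPM against 104 and 136 CPM. Kif20b was the exception with overlap, at 118 and 107 CPM in cyclopamine and 107 and 161 CPM in the controls. The remaining spindle genes were Kif23 (-0.32, SE 0.15), Kif22 (-0.29, SE 0.15), a motor on chromosomes, and Tpx2 (-0.27, SE 0.15), an activator of Aurora A.

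All 4 genes of cytokinesis, the final splitting of the cell, lay lower without overlap, beside 15.8% of all genes tested. Their median was -0.32. Anln (anillin), a scaffold of the contractile ring, measured 104 and 101 CPM in cyclopamine and 125 and 145 CPM in the controls (-0.39, SE 0.15). Prc1, which bundles microtubules of the central spindle, measured 102 and 82.4 CPM in cyclopamine and 106 and 129 CPM in the controls (-0.35, SE 0.16). Ect2, which activates RhoA at the division site, had a log2 fold change of -0.28 (SE 0.16). Racgap1, the partner of Kif23 in the centralspindlin complex, had -0.19 (SE 0.15).

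The most abundant members are markers of dividing cells and of chromosome structure. Top2a, which untangles DNA strands, measured 962 and 805 CPM in cyclopamine and 1069 and 1136 CPM in the controls (-0.32, SE 0.20). Mki67, which encodes the proliferation antigen Ki-67, measured 710 and 787 CPM in cyclopamine and 720 and 949 CPM in the controls. Its groups overlapped, and the log2 fold change was -0.14 (SE 0.20, 95% interval -0.56 to 0.27). Condensin folds chromosomes for division. Its subunit gene Ncapd2 measured 198 and 198 CPM in cyclopamine and 259 and 247 CPM in the controls (-0.35, SE 0.15). Ncapg had -0.29 (SE 0.15), and the core subunit genes Smc2 and Smc4 had -0.27 and -0.15 (SE 0.17 each), with overlap for Smc4.

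Per kilobase of annotated exon, Top2a was the most abundant member, at 98.03 CPM per kb in cyclopamine and 122 CPM per kb in the controls. Mki67 was at 74.4 CPM per kb in cyclopamine and 82.9 CPM per kb in the controls, and Ube2c at 72.0 CPM per kb in cyclopamine and 90.9 CPM per kb in the controls. The partners Ndc80 and Nuf2 were at 8.37 and 9.57 CPM per kb in cyclopamine and at 10.02 and 11.4 CPM per kb in the controls. Lengths count all annotated exons once, so genes with long alternative exons are understated. Among members, Spearman's rho between level in CPM and log2 fold change was 0.05, a description across 43 genes that share the same 4 libraries.

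**Figure D4:**
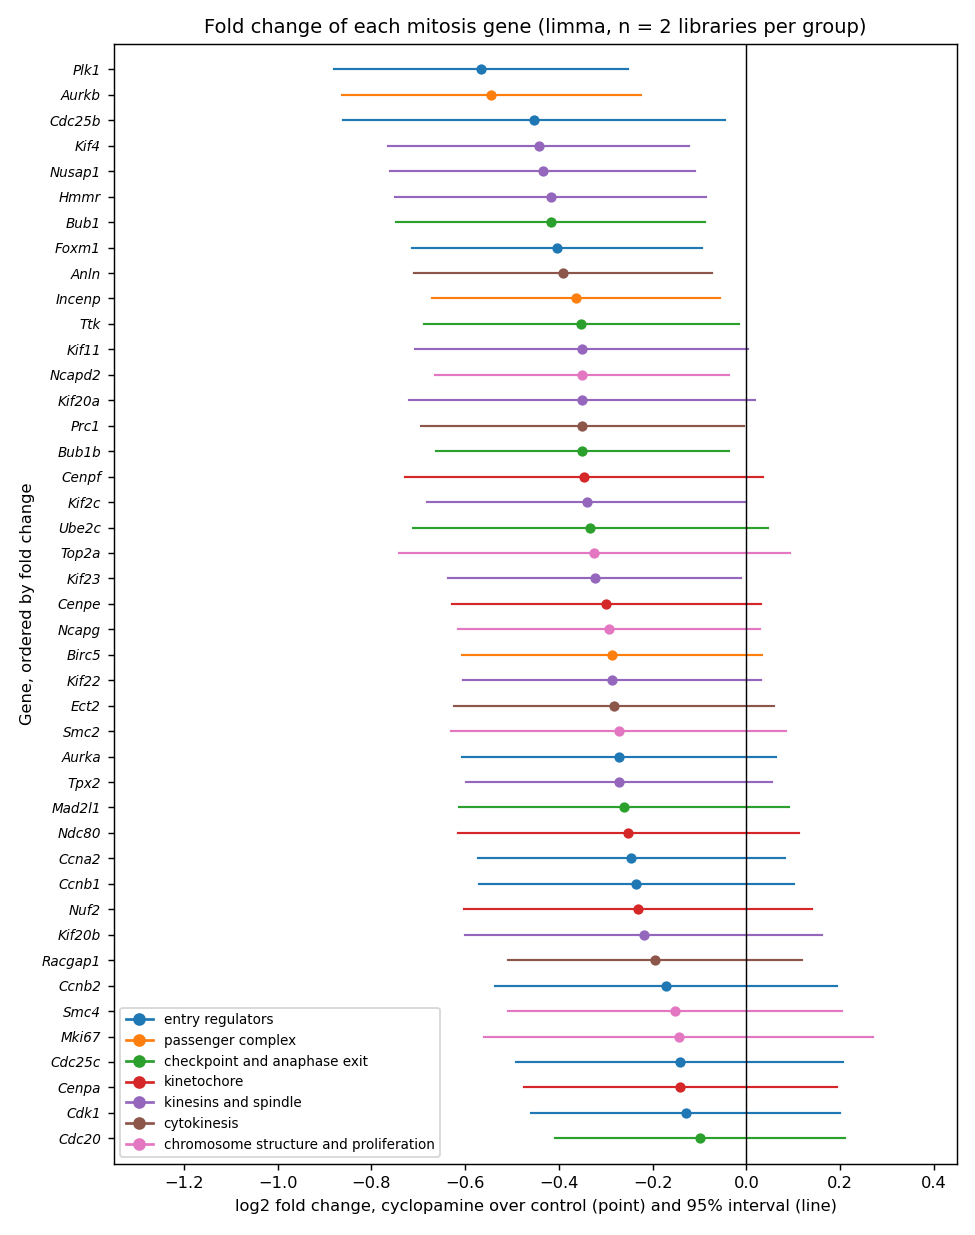
Log2 fold change of each member (points; cyclopamine over control, x axis) with its 95% interval from limma (lines), ordered by size and coloured by role. All 43 points lie below 0, and the intervals of 16 genes lie wholly below 0.

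The log2 fold changes of the members in the authors' deposited table are negative for all 43, with a median of -0.31. The smallest false discovery rates in the authors' deposited table are 0.111 for Plk1 (-0.57) and 0.152 for Aurkb (-0.55). At a false discovery rate under 0.05 the authors' deposited table holds 0 members, where 0.455% of all genes pass.

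A further 117 genes of mitosis, listed by role, lay lower in 102 cases and higher in 15. Their median log2 fold change was -0.20. The groups did not overlap for 51 genes lower and 4 higher, beside 15.8% and 16.8% of all genes tested. In limma 0 passed, beside 0.28% of all genes, and 18 lay lower at an unadjusted p under 0.05, beside 2.78%. Spindle and centrosome genes were lower in 23 of 24 cases, with a median of -0.24, and those with the smallest p were Fam83d (-0.55, SE 0.21), Kif18b (-0.37, SE 0.15) and Ckap2l (-0.33, SE 0.15). Kinetochore and centromere genes were lower in 24 of 26, with a median of -0.23, among them Ska3 (-0.43, SE 0.16) and Casc5 (-0.40, SE 0.16), a docking platform for Bub1. All 7 cytokinesis genes lay lower, with Cit (citron kinase) at -0.50 (SE 0.19), Depdc1b at -0.44 (SE 0.19) and Iqgap3 at -0.26 (SE 0.17). The 4 passenger and shugoshin genes, which include Cdca8 (borealin, -0.30, SE 0.17), had a median of -0.27.

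Subunits of the anaphase-promoting complex and other checkpoint genes were lower in 17 of 24 cases, with a median of -0.12, although Espl1 (separase), which cuts cohesin, was at -0.51 (SE 0.17, limma adjusted p = 0.481). Espl1 measured 59.5 and 66.4 CPM in cyclopamine and 78.1 and 103 CPM in the controls. The 22 further regulators had a median of -0.08, with Melk at -0.42 (SE 0.15), Ccnf at -0.40 (SE 0.15) and Mybl2 (B-Myb) at -0.22 (SE 0.16). The 10 condensin and cohesin genes had a median of -0.05, with the condensin gene Ncaph at -0.31 (SE 0.15) and the cohesin genes Smc1a, Smc3 and Rad21 at -0.06, -0.03 and -0.05. The 4 genes with both cyclopamine libraries above both controls were Nek6, Lin37, Bub3 and Haus7, with Haus7 at 0.27 and Lin37, a MuvB subunit, at 0.26.

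Genes of the preceding phases had a smaller median. Of 30 G1/S and replication genes, 23 were lower and 7 higher, with a median of -0.09. On the lower side 9 were free of overlap, beside 15.8% of all genes tested. Cdk6 (-0.96, SE 0.20), a kinase of G1, measured 13.4 and 13.04 CPM in cyclopamine and 24.8 and 27.8 CPM in the controls. Ccnd1 (cyclin D1, -0.70, SE 0.16) measured 116 and 124 CPM in cyclopamine and 175 and 217 CPM in the controls. Neither passed in limma (adjusted p = 0.0578 for Cdk6 and 0.0963 for Ccnd1), and the difference between the lists was not tested.

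**Figure D5:**
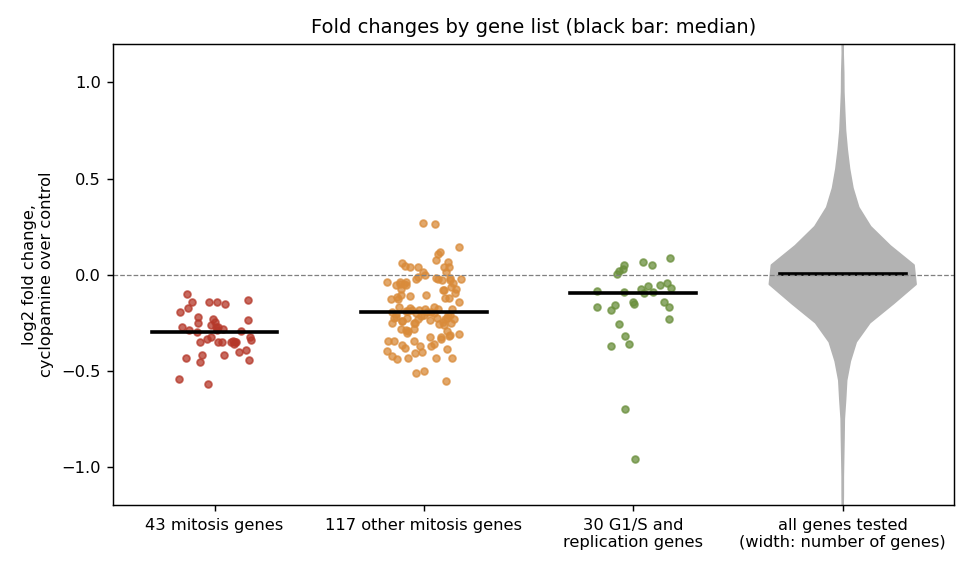
Log2 fold change (y axis, cyclopamine over control) of the 43 members, 117 other mitosis genes, 30 G1/S and replication genes and, as a shape whose width gives the number of genes, all 13568 genes tested (values beyond the axis are not drawn). Black bars are medians, at -0.30, -0.20, -0.09 and 0.00455.

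Among the cell type markers, only neural tube genes passed the threshold. Limb mesenchyme markers such as Prrx1 were present in every library, with 6 of 7 higher in cyclopamine, 0 past the threshold and summed levels of 1493 and 1724 CPM in cyclopamine and 1397 and 1485 CPM in the controls. Of 10 neural tube markers 6 could be tested and all 6 were lower, 4 of them past the threshold (Tubb3, Stmn2, Elavl3 and Zic1). The 10 markers summed to 7.89 and 10.8 CPM in cyclopamine and 41.5 and 68.8 CPM in the controls, with Neurod4 and Olig3 at 0 reads in both cyclopamine libraries. Erythroid markers were higher in 5 of 5 cases, 0 past the threshold, with summed levels of 2133 and 1252 CPM in cyclopamine and 1304 and 605 CPM in the controls. Endothelial (5 of 5 higher), muscle precursor (4 of 4 higher), surface ectoderm (5 of 6 higher), neural crest (2 of 2 higher) and macrophage markers (2 of 5 higher) had 0 past the threshold. Endothelial markers summed to 357 and 426 CPM in cyclopamine and 331 and 345 CPM in the controls, and surface ectoderm markers to 337 and 254 CPM against 314 and 245 CPM. Muscle precursor markers summed to 69.1 and 76.3 CPM in cyclopamine and 43.7 and 78.1 CPM in the controls. Neural crest markers summed to 21.6 and 19.1 CPM in cyclopamine and 23.8 and 16.8 CPM in the controls, and macrophage markers to 11.1 and 19.0 CPM against 15.4 and 18.1 CPM. Neural tube cells divide too, and control 2 held the most of both the neural markers and the mitosis genes. Between the cyclopamine libraries the orders differed. The neural sum was higher in cyclopamine 2, while the sum of the 43 mitosis genes was higher in cyclopamine 1 (7102 against 6535 CPM). The part of these cell types in the mitosis result was not tested.

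Leaving out a library changed the size of the difference more than its direction. Members with a negative fold change numbered 43 without cyclopamine 1, 42 without cyclopamine 2, 42 without control 1 and 40 without control 2. The median was -0.35 without cyclopamine 1, -0.22 without cyclopamine 2, -0.43 without control 1 and -0.23 without control 2. In each of these 4 fits 0 members passed the threshold. Plk1 kept a log2 fold change between -0.65 and -0.48 and Aurkb between -0.62 and -0.47. With replicate number as a block, limma called 8 members, all lower, beside 2.59% of all genes tested; the labels give no shared origin for equal numbers.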

How the data were processed

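For each gene the deposited table gives 1 normalized signal per library, in CPM as scaled by the authors. This signal is a whole multiple of 1 read's worth in 100% of values (within 0.01), so reads were recovered. Per the submitters' processing notes, which give neither roles nor order, the build was mm10 and the tools were edgeR 3.4.2, HTSeq 0.5.4p5, TopHat2 2.0.9, SAMtools and Bowtie. The annotation and any use of strand are not stated. Exons of 12 members overlap a gene on the opposite strand and of 3 on the same strand (GENCODE vM21), so their values are less certain. The second deposited table gives the authors' log2 fold change, mean log2 CPM, p-value and false discovery rate, with the test not stated.

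The 13568 genes that averaged 1 CPM or more were fitted as log2(CPM + 0.5) in limma 3.58.1 under R 4.3.3; the variance followed an intensity trend and there was no covariate. Two-sided p-values were adjusted over these genes by Benjamini-Hochberg. An exact permutation of 2 against 2 libraries cannot go below 0.333. Alternatives used edgeR 4.0.16 (quasi-likelihood) and DESeq2 1.42.0 on recovered reads, other scalings, filters, pseudocounts, a replicate block and leaving out each library. Fits were tested on simulated data whose changed genes moved more than any member did, so changes of the members' size were not tried. Genes named are all 43 members, up to 3 other mitosis genes per role by p (1 of these is not reported here), and Gli1 and Ptch1; the G1/S genes, the cohesin genes, Prrx1, the neural markers and the 4 genes above control were named after their values were seen. Members and lists were chosen with earlier results of these data known. No column of another sample was present (0). Promoters without an entry in the RefSeq table were not analysed here.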

Additional observations from a re-analysis of the deposited data

How the results depend on the processing

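Fold changes of all 43 members kept their sign and 0 passed under each other test, scaling, filter, pseudocount and variance model. Over all genes, the count past the threshold was 38 and became 20 with total-read scaling, 2 without a filter, 0 with the trend dropped (in limma, 837 with an unadjusted p under 0.05), and 43 to 122 when 1 library was removed; the cause was not tested. The quasi-likelihood test called 40 (34 lower) and DESeq2 52, with 0 members each. At an unadjusted p under 0.05 these 2 tests gave 17 and 15 members, beside 817 and 522 of all 13568 genes. Deviations of same-numbered libraries correlated at 0.27, but the labels tie the numbers to no litter or day. With a replicate block limma called 351 genes (2.59% of those tested) and 8 members, all lower: Plk1, Aurkb, Bub1, Kif4, Nusap1, Hmmr, Foxm1 and Anln (adjusted p from 0.00038 to 0.0491). Leaving out each library gave medians from -0.43 to -0.22, 40 to 43 members lower and 0 passing. The sign turned in 1 such fit each for Ccnb2 (-0.36 to 0.013), Cenpa (-0.28 to 0.0019), Nuf2 (-0.47 to 0.0051), Kif20b (-0.51 to 0.069) and Mki67 (-0.34 to 0.054). With 1 library left in a group, it is assumed to vary like the other group. Each member had at least 324 reads in each library, and a part of sequencing depth in these differences was not tested.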
